A study of Mus musculus with 32 samples.

Results

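The RNA of mouse FE1 cells that had been exposed to 6 mM hydrazine for 4 h and then kept for 20 h without the compound was compared with that of vehicle cultures carried through the same times. FE1 is a lung epithelial cell line established from a transgenic mouse that carries a bacterial reporter for mutation assays. Hydrazine is a small, reducing nitrogen compound that reacts with carbonyl groups and that damages DNA in rodents. The comparison rested on 3 libraries of 6 mM and 3 of vehicle (0 mM), named a to c in the labels, out of 32 libraries of the series. Further groups of 3 libraries each are set beside them: vehicle and 6 mM collected at the end of the 4 h exposure, and 1, 4 and 10 mM after the same washout. All groups shared the cell line, and no label gave a passage, a viability or a culture density. The 32 libraries also hold 1, 4 and 10 mM collected at 4 h, which entered the fit. Nothing in the labels says that the libraries of a group were separate cultures. P-values thus measure only the variation among libraries of the same group, pooled over all 32 libraries, and that may be technical. Of the 49585 entries of the deposited table, 13258 had enough counts to be tested, and all of them entered the comparison. The totals of the 6 libraries ran from 11947429 to 15837454 counts.

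The labelled cell type was checked against marker genes. Of 20 general epithelial markers, 4 had enough counts to be tested: Krt18, Krt5, Cldn4, Esrp1 and Elf3 were at 0 in all 6 libraries, and Epcam and Cdh1 did not pass 0.0819 and 0.516 CPM, the count scaled to the library's size. Of 20 alveolar and airway markers, 9 were at 0 in all 6, among them Sftpc, Sftpa1 and Nkx2-1. All 17 mesenchymal markers were detected, with Vim between 4290 and 5854 CPM and Col1a1 between 4628 and 5779 CPM. Over the whole lists the epithelial markers summed to 242 to 262 CPM in vehicle and 122 to 239 CPM after 6 mM, nearly all of it Tjp1, and the alveolar and airway markers to 798 to 829 and 765 to 808 CPM, mostly Cav1. Tjp1 stood at 240, 256 and 237 CPM in the vehicle libraries a to c and 232, 223 and 113 CPM after 6 mM. The 122 CPM is thus that of library c, whose deviation is described below. The defining epithelial markers were thus at or near 0 in these cultures, and the cells are called FE1 cells below. Endothelial and leukocyte markers summed to at most 30.2 and 3.001 CPM in any of the 6 libraries, and Pecam1 and Ptprc to at most 0.0735 and 0.0739 CPM. In bulk RNA, fewer cells of a kind and less RNA of a gene per cell cannot be told apart.

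Cells sense oxygen through the transcription factor HIF-1, whose alpha subunit is hydroxylated and degraded while oxygen and iron are available. When it is stable, HIF-1 raises genes of glucose uptake and glycolysis and genes that hold back mitochondrial respiration. Lysosomal genes are raised together by TFEB and TFE3, which bind E-box sequences near the genes' starts, and sterol synthesis genes by SREBP-2 when membrane cholesterol is low. The results below are ordered by these programmes, after a check of the libraries.

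Library c of 6 mM stood apart from libraries a and b. Its difference from the vehicle mean fell with the exonic length of the gene: the median was 0.36 (log2) over the 2019 genes with the shortest exons in sum and -0.43 over the 2017 with the longest. In libraries a and b the same medians ran from -0.025 to 0.0084 over the 5 length classes. A gene's difference from its own mean over all 32 libraries was also set against length, over 10083 genes within each library. Spearman's rho was -0.62 in library c, -0.43 in library b of 1 mM after washout, and between -0.13 and 0.21 in the other 30. Over genes, chi-square divided by its degrees of freedom was, between libraries a and b, 2.71, while that of library c against a and b was 46.6 and 47.5. The main results below are therefore given with all 3 libraries and without library c.

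**Figure D1:**
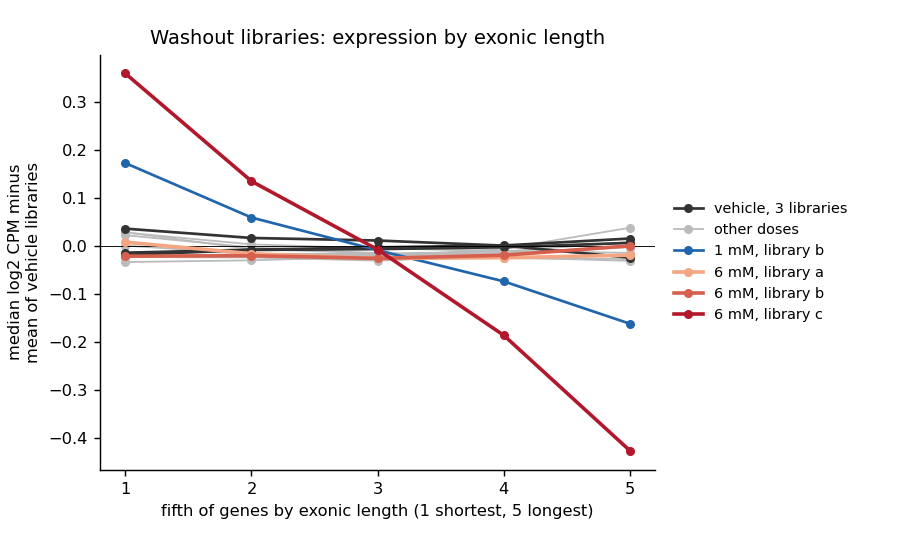
Median difference in log2 CPM from the mean of the 3 vehicle libraries (vertical axis), over 5 classes of genes by exonic length (horizontal axis), with 1 line per washout library. Library c of 6 mM runs from 0.36 to -0.43, library b of 1 mM from 0.17 to -0.16, and libraries a and b of 6 mM stay near 0.

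At 20 h after removal of 6 mM hydrazine, 19 of 32 tested genes of glycolysis and the HIF-1 response were lower than in vehicle, and 19 of 37 lysosomal genes and 11 of 39 p53 targets were higher. A gene was called at an adjusted p under 0.05 in edgeR's quasi-likelihood test, adjusted over all tested genes. With all libraries, 1466 genes were called, or 11.1% of those tested: 852 were higher (6.43%) and 614 lower (4.63%). Without library c, 840 of 13427 were called (6.26%), 504 higher (3.75%) and 336 lower (2.50%). Both ways and in the same direction, 617 genes were called (4.65%), 408 higher (3.08%) and 209 lower (1.58%), and in 591 of them the 3 libraries of one group lay wholly above or below those of the other, which was the case for 24.1% of all genes. Changes were mostly small: of the 1466 genes, 99 were at least 2-fold higher and 14 at least 2-fold lower. The counts lean on the spread shared with the other groups of the series. In a fit of the 6 compared libraries alone, 1 gene, Ces2e, was called, and 1442 had an unadjusted p under 0.05. In that fit without library c, 993 were called, with 525 of the 617 among them. Single libraries moved the count: it was 873, 894 and 732 without vehicle library a, b or c, and 2408 and 2660 without 6 mM library a or b. Library c stayed in these fits, and its part in the counts was not tested.

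The largest rise among genes of at least 5 CPM that were called both ways was that of Ces2e, which encodes a carboxylesterase that hydrolyses esters and amides (chr8:104926260-104934672, plus strand, GENCODE M21 on GRCm38). Ces2e stood at 6.69, 6.86 and 6.304 CPM in the vehicle libraries a to c and 42.4, 40.9 and 47.8 CPM in the 6 mM libraries a to c. The groups lay far apart, with each 6 mM library above every vehicle library. Its log2 fold change was 2.72 ± 0.12, adjusted p = 3.77e-16, and without library c 2.65 ± 0.12, adjusted p = 8.2e-18.

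Dcxr, a dicarbonyl and L-xylulose reductase, stood at 16.9, 15.9 and 13.6 CPM in the vehicle and 33.6, 32.96 and 47.4 CPM after 6 mM (log2 fold change 1.29 ± 0.11, adjusted p = 3.45e-09, and 1.10 ± 0.091, adjusted p = 4.19e-10, without library c). Ugt1a7c, a UDP-glucuronosyltransferase, stood at 21.4, 13.1 and 22.02 CPM in the vehicle and 73.8, 52.5 and 70.9 CPM after 6 mM (log2 fold change 1.80 ± 0.48, adjusted p = 0.0174, and 1.74 ± 0.52, adjusted p = 0.0475, without library c). This gene shares exons with its neighbours Ugt1a6a and Ugt1a6b, so its count is uncertain, and those neighbours were not called. Ephx1, microsomal epoxide hydrolase, stood at 223, 233 and 206 CPM in the vehicle and 287, 280.4 and 328 CPM after 6 mM, with no overlap between the groups (log2 fold change 0.43 ± 0.051, adjusted p = 1.42e-06, and 0.36 ± 0.045, adjusted p = 1.65e-06, without library c).

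Sytl1, a synaptotagmin-like protein of secretory vesicles, stood at 6.69, 6.27 and 4.83 CPM in the vehicle and 18.6, 15.8 and 25.5 CPM after 6 mM (log2 fold change 1.75 ± 0.15, adjusted p = 2.66e-09, and 1.53 ± 0.13, adjusted p = 1.37e-09, without library c). Abca1, the pump that exports cholesterol to apolipoprotein particles, stood at 3.67, 3.01 and 2.702 CPM in the vehicle and 9.63, 9.31 and 4.197 CPM after 6 mM: library c was the lowest of the treated libraries and still above every vehicle library. Its log2 fold change was 1.30 ± 0.21, adjusted p = 0.000141, and 1.59 ± 0.16, adjusted p = 2.64e-08 without library c. Tmem86a, a lysoplasmalogenase, and Atg9b, a membrane protein of autophagy, rose by log2 fold changes of 1.40 and 1.46 (1.33 and 1.44 without library c). Ctsf, the lysosomal protease cathepsin F, rose by 1.25 and 1.22 with and without library c.

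The RNA-binding protein gene Celf5 stood at 2.42, 2.26 and 2.05 CPM in the vehicle and 9.57, 8.13 and 6.78 CPM after 6 mM (log2 fold change 1.86 ± 0.19, adjusted p = 1.09e-07, and 1.97 ± 0.19, adjusted p = 7.35e-09, without library c). Lbp, the lipopolysaccharide-binding protein, stood at 2.06, 2.01 and 0.983 CPM in the vehicle and 5.502, 6.21 and 6.18 CPM after 6 mM (log2 fold change 1.81 ± 0.31, adjusted p = 0.000221, and 1.78 ± 0.33, adjusted p = 0.000524, without library c). Selenop, the selenium carrier selenoprotein P, stood at 43.6, 37.3 and 31.7 CPM in the vehicle and 61.1, 76.3 and 74.3 CPM after 6 mM (log2 fold change 0.91 ± 0.095, adjusted p = 2.67e-07, and 0.87 ± 0.099, adjusted p = 4.72e-07, without library c). In each of these 3 genes the groups did not overlap. The remaining genes among the 15 largest rises were Ckmt1, mitochondrial creatine kinase, at log2 fold changes of 1.73 and 1.51 with and without library c, Serpinb8, a protease inhibitor, at 1.33 and 1.41, Tcp11l2 at 1.28 and 1.28, Ypel2 at 1.21 and 1.21 and Ypel3 at 1.18 and 1.05.

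**Figure D2:**
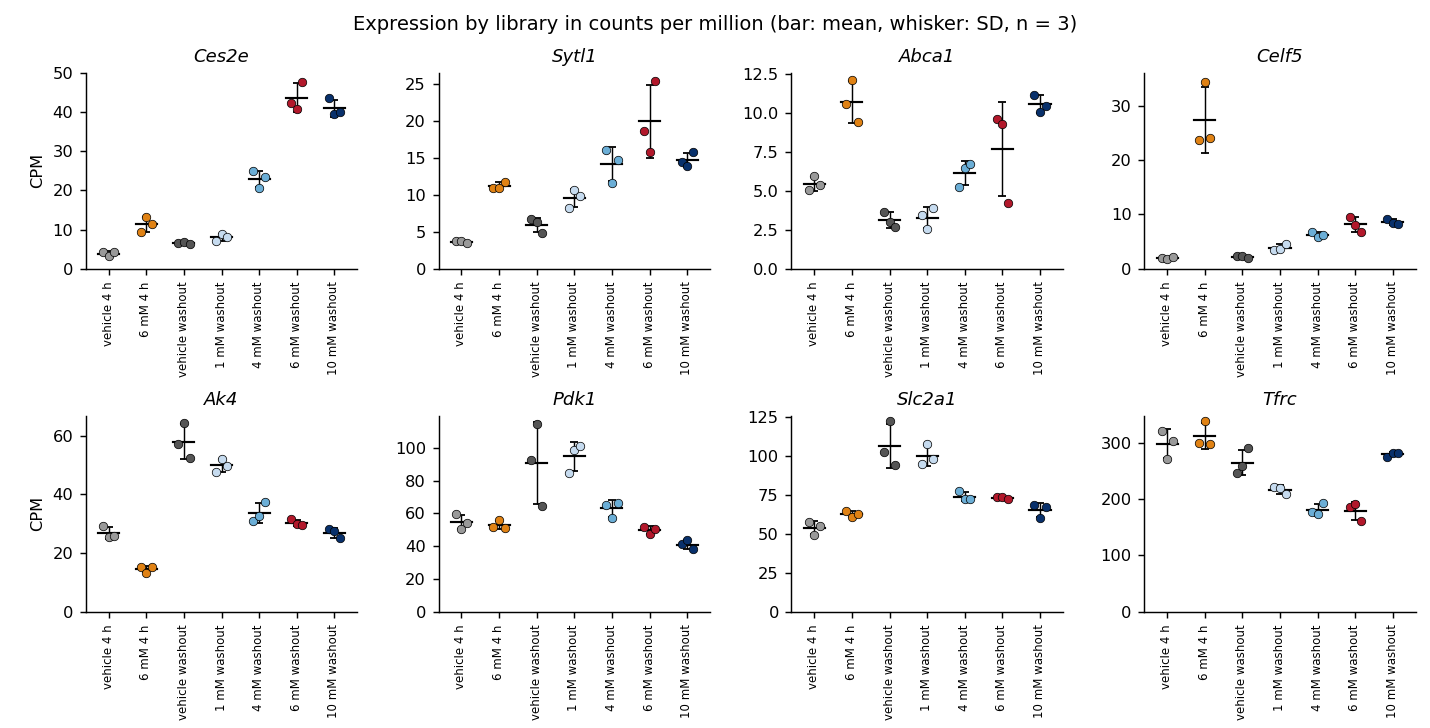
CPM per library (vertical axis, from 0) of 8 genes in 7 groups (horizontal axis), with the mean as a bar and the SD over 3 libraries as whiskers. Ces2e stands at 42.4, 40.9 and 47.8 CPM after 6 mM and washout against at most 6.86 CPM in the vehicle, and Ak4 at 29.4 to 31.5 CPM against at least 52.3 CPM.

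The HIF-1 and glycolysis genes were the list with the lowest median. Of its 32 tested genes, 19 were lower and 0 higher with all libraries, and also 19 and 0 without library c, with 17 of them called both ways. Lower calls made up 4.63% and 2.50% of all genes in these settings. The median log2 fold change of the list was -0.37 with all libraries and -0.44 without library c, against -0.0021 and -0.010 over all tested genes. In all 3 libraries of 6 mM the list's mean lay below that of each vehicle library.

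Ak4 is a mitochondrial adenylate kinase that HIF-1 raises (chr4:101419277-101466995, plus strand). It had the largest fall among genes of at least 5 CPM that were called both ways with separate libraries. It stood at 57.2, 64.2 and 52.3 CPM in the vehicle libraries a to c and 31.5, 29.7 and 29.4 CPM in the 6 mM libraries a to c. Its log2 fold change was -0.94 ± 0.081, adjusted p = 4.71e-09, and -0.92 ± 0.087, adjusted p = 4.47e-09 without library c. Pdk1, the kinase that shuts pyruvate out of the citric acid cycle, stood at 92.6, 115 and 64.5 CPM in the vehicle and 51.8, 47.5 and 50.3 CPM after 6 mM (log2 fold change -0.86 ± 0.12, adjusted p = 2.4e-05, and -0.87 ± 0.14, adjusted p = 0.000412, without library c). Vehicle library c was the lowest vehicle library for Pdk1 and for Bnip3, and still above all 6 mM libraries. Bnip3, a receptor that directs mitochondria to autophagy, stood at 77.1, 101 and 56.0 CPM in the vehicle and 41.2, 39.3 and 49.1 CPM after 6 mM (log2 fold change -0.85 ± 0.13, adjusted p = 0.00011, and -0.95 ± 0.15, adjusted p = 0.000318, without library c).

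Genes of glucose uptake and of the steps of glycolysis were among those called. Slc2a1, the glucose transporter GLUT1, stood at 103, 122 and 94.2 CPM in the vehicle and 73.5, 73.2 and 72.1 CPM after 6 mM (log2 fold change -0.54 ± 0.082, adjusted p = 6.47e-05, and -0.54 ± 0.088, adjusted p = 0.000118, without library c). Pfkl, the liver form of phosphofructokinase, stood at 215, 254 and 191 CPM in the vehicle and 132, 126 and 154 CPM after 6 mM (log2 fold change -0.68 ± 0.083, adjusted p = 2.91e-06, and -0.77 ± 0.083, adjusted p = 2.31e-07, without library c). Pgk1, phosphoglycerate kinase, stood at 1206, 1404 and 1030 CPM in the vehicle and 809.5, 771 and 993 CPM after 6 mM (log2 fold change -0.50 ± 0.086, adjusted p = 0.00028, and -0.62 ± 0.082, adjusted p = 7.53e-06, without library c). Ldha, which turns pyruvate into lactate, stood at 1395, 1575 and 1299 CPM in the vehicle and 926, 903 and 1206 CPM after 6 mM (log2 fold change -0.49 ± 0.085, adjusted p = 0.00028, and -0.64 ± 0.072, adjusted p = 2.29e-07, without library c). In Pgk1 and Ldha library c was the closest to the vehicle of the 3 treated libraries. Log2 fold changes with and without library c were -0.45 and -0.54 for Pgam1, -0.37 and -0.52 for Tpi1, -0.34 and -0.48 for Aldoa, -0.28 and -0.44 for Eno1, -0.22 and -0.32 for Pkm and -0.28 and -0.30 for Pfkp, enzymes of the pathway, all called both ways. Gapdh was at -0.16 ± 0.079, adjusted p = 0.176 with all libraries and was called without library c (-0.32 ± 0.061, adjusted p = 0.00078). Hk2, hexokinase, was at -0.66 ± 0.15, adjusted p = 0.00649, and no longer called without library c (-0.52 ± 0.16, adjusted p = 0.0578).

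Other HIF-1 targets were P4ha1 and P4ha2, the prolyl hydroxylases of collagen, at -0.41 and -0.41 and -0.50 and -0.56, and Egln1, the oxygen sensor that marks HIF-1 alpha for degradation, at -0.38 and -0.42. Ankrd37 was at -0.98 and -1.12, but it did not meet the rule by which Ak4 led the falls (called both ways, at least 5 CPM, separate libraries). Vegfa, the vascular growth factor and a defining target, was not called (log2 fold change -0.20 ± 0.079, adjusted p = 0.085, and -0.15 ± 0.081, adjusted p = 0.306, without library c). Gm49759, a gene among the 15 largest falls with a log2 fold change of -0.72 and -0.47, lies on the strand of Pkm and overlaps it, so its reads cannot be assigned with certainty.

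The starts of these genes were read from RefSeq windows of GRCm38.p6 that run from 250 bases before to 50 bases after a transcript's start. The core letters that HIF-1 binds, ACGTG or GCGTG on either strand, are shown in capitals in the windows of the 4 list members with the smallest adjusted p that were called both ways, to show what stands at the start of the genes that fell. Where a gene had several windows, that with the most matches was taken. The windows are chr4:101419453-101419752, plus strand for Ak4, chr10:78009758-78010057, minus strand for Pfkl, chr2:71872974-71873273, plus strand for Pdk1 and chr10:59323046-59323345, plus strand for P4ha1, and each sequence is written 5′ to 3′ on the gene's strand.
Ak4: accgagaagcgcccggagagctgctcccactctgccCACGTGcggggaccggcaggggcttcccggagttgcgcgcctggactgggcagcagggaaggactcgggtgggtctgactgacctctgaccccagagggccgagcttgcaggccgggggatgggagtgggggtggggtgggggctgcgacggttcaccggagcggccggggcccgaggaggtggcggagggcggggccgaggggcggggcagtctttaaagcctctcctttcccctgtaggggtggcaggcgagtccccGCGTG
Pfkl: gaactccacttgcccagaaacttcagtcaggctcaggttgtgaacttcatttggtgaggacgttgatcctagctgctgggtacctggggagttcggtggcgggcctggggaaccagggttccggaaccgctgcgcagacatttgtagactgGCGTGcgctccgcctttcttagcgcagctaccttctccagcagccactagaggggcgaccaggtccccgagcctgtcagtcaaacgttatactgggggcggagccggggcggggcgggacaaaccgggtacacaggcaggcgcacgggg
Pdk1: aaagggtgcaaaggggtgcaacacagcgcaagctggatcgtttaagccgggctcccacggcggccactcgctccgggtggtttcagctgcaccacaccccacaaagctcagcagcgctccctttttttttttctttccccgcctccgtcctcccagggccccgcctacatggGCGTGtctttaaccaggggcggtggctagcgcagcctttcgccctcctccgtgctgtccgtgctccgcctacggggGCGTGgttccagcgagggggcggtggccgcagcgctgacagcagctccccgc
P4ha1: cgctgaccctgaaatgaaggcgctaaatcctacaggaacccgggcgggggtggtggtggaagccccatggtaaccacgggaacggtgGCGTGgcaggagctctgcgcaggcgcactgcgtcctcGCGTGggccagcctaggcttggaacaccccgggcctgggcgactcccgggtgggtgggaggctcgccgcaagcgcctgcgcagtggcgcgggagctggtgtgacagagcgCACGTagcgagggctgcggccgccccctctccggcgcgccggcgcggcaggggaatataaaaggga
Of the 32 tested members 29 had a window, and 27 of these (93.1%) held the core in at least 1 window, as did 16 of the 17 members called both ways. Over all tested genes with a window the share was 68.2%. The core was not limited to lists that fell. In the autophagy and lysosome list, whose called genes rose, 24 of 28 members with a window (85.7%) held it, and 10 of the 11 called both ways. In the cholesterol list, mostly lower where called, 13 of 19 (68.4%) did. In single windows it was 80% of 45 for the list and 62.2% of 12259 for tested genes. A core of 5 letters is frequent, and its match is a description of the letters, not a binding site. The list was made of HIF-1 and glycolysis genes, so a higher share in it is no result of the exposure.

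The same genes differed between the vehicle groups of the 4 h and washout collections. Relative to the mean of the washout vehicle, the mean log2 level over the 32 genes was -0.31, -0.39 and -0.39 in the vehicle libraries at 4 h and -0.29, -0.29 and -0.34 in the 6 mM libraries at 4 h. After washout it was -0.020, 0.19 and -0.17 in vehicle and -0.43, -0.43 and -0.30 after 6 mM. The vehicle cultures were thus higher at the later time for 30 of the 32 genes by mean CPM, with a median ratio of 1.23, while the median ratio of 6 mM after washout to the vehicle at 4 h was 0.976. Ak4 stood at 26.8 ± 2.09 CPM in the 4 h vehicle, 57.9 ± 5.99 CPM in the washout vehicle and 30.2 ± 1.12 CPM after 6 mM and washout (mean ± SD, n = 3). Slc2a1 stood at 53.8 ± 4.096, 106 ± 14.3 and 72.96 ± 0.763 CPM in the same groups. The difference between the vehicle groups was not tested, and no label gives the density of the cultures. The washout vehicle libraries spread more than the treated ones in this list, so the size of the fall depends on which vehicle library is used: the list's median was -0.29 without vehicle library b and -0.43 without vehicle library c, with 13 and 21 of 32 called.

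**Figure D3:**
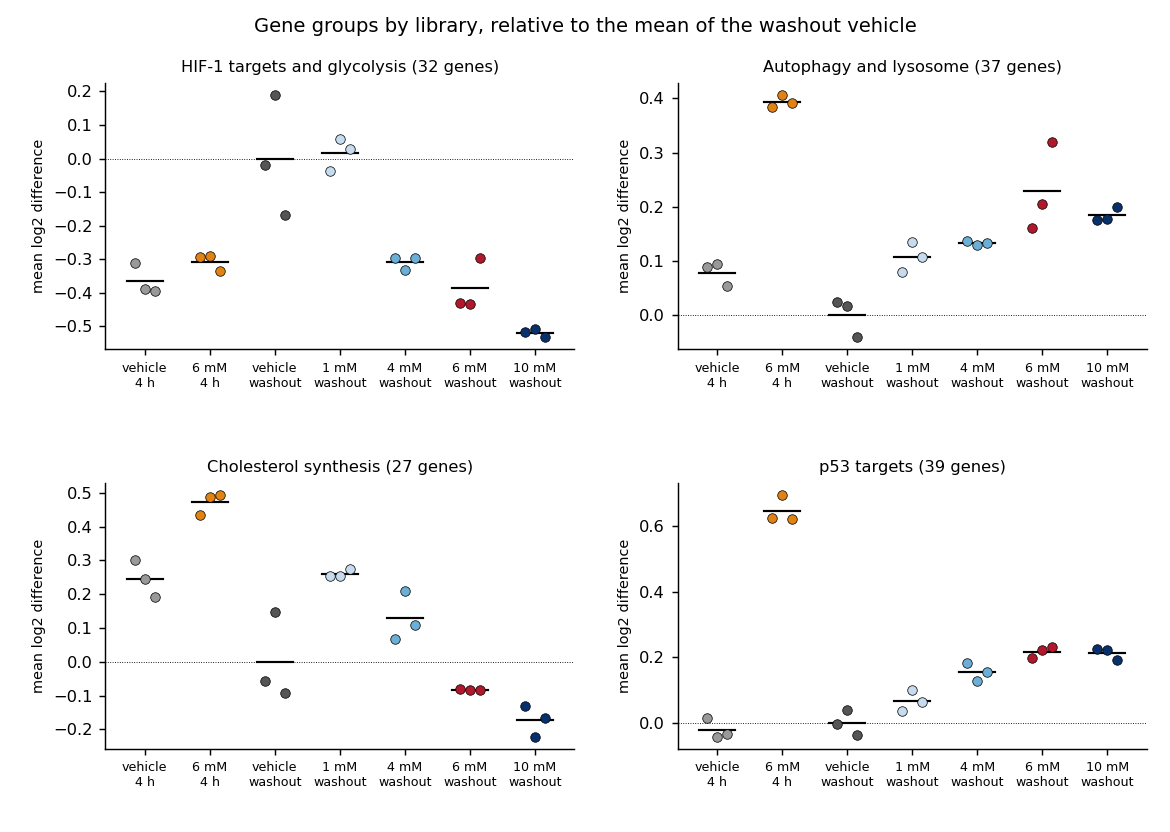
Mean over the tested genes of 4 lists of log2 CPM minus the mean of the washout vehicle (vertical axis), per library in 7 groups (horizontal axis), with the group mean as a bar. HIF-1 and glycolysis genes lie at -0.43, -0.43 and -0.30 after 6 mM and washout, and lysosomal genes at 0.16, 0.21 and 0.32.

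Of 37 tested genes of autophagy and the lysosome, 19 were higher and 0 lower with all libraries, and 15 and 0 without library c, with 13 called both ways. Higher calls made up 6.43% and 3.75% of all genes. The median log2 fold change was 0.21 and 0.18. Proteases of the lysosome led the list. Ctsl, cathepsin L, stood at 150, 152 and 144 CPM in the vehicle and 197, 197 and 227 CPM after 6 mM (log2 fold change 0.48 ± 0.053, adjusted p = 6.28e-07, and 0.40 ± 0.049, adjusted p = 7.14e-07, without library c). Ctsd, cathepsin D, stood at 263, 270.3 and 231 CPM in the vehicle and 354, 346 and 469 CPM after 6 mM (log2 fold change 0.61 ± 0.072, adjusted p = 1.55e-06, and 0.46 ± 0.050, adjusted p = 1.46e-07, without library c). Ctsb, cathepsin B, stood at 238, 234 and 218 CPM in the vehicle and 274, 291 and 326 CPM after 6 mM (log2 fold change 0.37 ± 0.051, adjusted p = 1.68e-05, and 0.30 ± 0.046, adjusted p = 5.13e-05, without library c). The groups did not overlap in any of the 3, and library c was the highest treated library in each.

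Hexa, a lysosomal enzyme that breaks down glycolipids, rose by log2 fold changes of 0.42 and 0.30 with and without library c. Npc2, which carries cholesterol out of the lysosome, rose by 0.44 and 0.28. Atp6v0d1, a subunit of the proton pump, rose by 0.41 and 0.27, and Lamp1, a membrane protein of the lysosome, by 0.21 and 0.14. Map1lc3b, the LC3 protein of autophagosomes, rose by 0.36 and 0.27. It overlaps the read-through gene Gm20388, which was not called. Sqstm1, the autophagy receptor p62, was called with all libraries and not without library c (log2 fold change 0.29 ± 0.072, adjusted p = 0.0105, and 0.19 ± 0.066, adjusted p = 0.0899, without library c).

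The windows at the starts of Ctsl (chr13:64370471-64370770, minus strand) and Ctsd (chr7:142387778-142388077, minus strand), the 2 members with the smallest adjusted p, are shown with the E-box CACGTG in capitals, a palindrome that also holds the HIF-1 core ACGTG.
Ctsl: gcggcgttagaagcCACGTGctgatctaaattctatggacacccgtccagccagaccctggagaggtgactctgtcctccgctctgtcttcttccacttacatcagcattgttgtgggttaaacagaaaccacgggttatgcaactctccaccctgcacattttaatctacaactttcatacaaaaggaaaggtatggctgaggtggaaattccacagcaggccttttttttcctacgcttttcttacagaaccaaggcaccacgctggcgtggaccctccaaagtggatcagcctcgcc
Ctsd: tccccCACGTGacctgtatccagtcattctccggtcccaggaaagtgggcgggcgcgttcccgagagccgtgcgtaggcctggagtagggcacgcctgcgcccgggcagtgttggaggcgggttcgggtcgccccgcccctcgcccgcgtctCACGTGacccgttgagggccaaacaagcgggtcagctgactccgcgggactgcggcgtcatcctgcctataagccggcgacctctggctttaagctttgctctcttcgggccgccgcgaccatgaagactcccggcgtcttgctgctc
Of 28 tested members with a window, 11 (39.3%) held this E-box, and among the 11 called both ways with a window 6 did, against 11.8% of all tested genes. With the letter T before it (TCACGTG), the core of the sequence to which TFEB binds, 9 of the 28 (32.1%) matched, against 7.01% of all tested genes. These shares describe the letters in the windows. The lists were not chosen by sequence, but lysosomal genes are introduced above as genes with E-boxes near their starts. A higher share thus goes with membership of the list and is no result of the exposure.

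In the DNA damage response, the p53 targets on the list were called mostly as higher. Among 39 tested p53 targets there were 11 higher calls and 1 lower call with all libraries, and 9 and 0 without library c, with 9 called both ways. Over all tested genes the higher and lower shares were 6.43% and 4.63% with all libraries and 3.75% and 2.50% without library c. The median log2 fold change was 0.18 and 0.14. Dcxr and Ephx1, described above, were the members with the smallest adjusted p. Fas, the death receptor, stood at 14.9, 14.6 and 15.3 CPM in the vehicle and 23.2, 21.1 and 28.1 CPM after 6 mM (log2 fold change 0.69 ± 0.097, adjusted p = 2.15e-05, and 0.57 ± 0.096, adjusted p = 0.000151, without library c). Trp53inp1, a p53-induced nuclear protein, stood at 68.2, 74.1 and 44.9 CPM in the vehicle and 118, 122 and 78.8 CPM after 6 mM (log2 fold change 0.77 ± 0.17, adjusted p = 0.00476, and 0.94 ± 0.17, adjusted p = 0.00137, without library c). Vehicle library c was low for Trp53inp1, and the groups did not overlap.

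Mdm2, the ubiquitin ligase that p53 raises and that restrains p53, stood at 264, 266 and 253 CPM in the vehicle and 319.8, 327 and 289 CPM after 6 mM (log2 fold change 0.26 ± 0.055, adjusted p = 0.00314, and 0.31 ± 0.054, adjusted p = 0.000295, without library c). Cdkn1a, the cell cycle inhibitor p21, was at 0.20 ± 0.055, adjusted p = 0.0153 with all libraries and no longer called without library c (0.12 ± 0.049, adjusted p = 0.159). Log2 fold changes were 0.23 and 0.31 for Ccng1, cyclin G1, 0.49 and 0.45 for Sesn1, sestrin 1, and 0.35 and 0.33 for Btg2, an antiproliferative gene, with and without library c. The lower gene was Trp53 itself, at -0.16 ± 0.049, adjusted p = 0.0332, not called without library c (-0.14 ± 0.052, adjusted p = 0.0998). Trp53 encodes p53 and is counted in the list. Gls2, a p53-responsive gene described below, is not in the list and was lower both ways, at -0.66 and -0.72. The counts thus depend on which genes were listed.

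Of 27 tested genes of base excision and mismatch repair, 1 was higher and 4 lower with all libraries, and 1 and 3 without library c, where 11.1% and 6.26% of all tested genes were called in either direction. Mgmt, which removes alkyl groups from guanine, stood at 10.5, 10.5 and 10.5 CPM in the vehicle and 14.8, 13.01 and 19.5 CPM after 6 mM (log2 fold change 0.58 ± 0.12, adjusted p = 0.00183, and 0.40 ± 0.11, adjusted p = 0.0275, without library c). All 3 vehicle libraries lay below the lowest treated one. Tdg, a thymine DNA glycosylase, stood at 206, 207 and 214 CPM in the vehicle and 169, 172 and 187 CPM after 6 mM (log2 fold change -0.25 ± 0.057, adjusted p = 0.00529, and -0.30 ± 0.059, adjusted p = 0.00116, without library c). Parp1, which marks strand breaks, stood at 168, 169 and 178 CPM in the vehicle and 150.3, 153 and 139 CPM after 6 mM (log2 fold change -0.22 ± 0.049, adjusted p = 0.0035, and -0.18 ± 0.050, adjusted p = 0.0223, without library c). Apex2, an abasic site nuclease, was at -0.40 and -0.35 with and without library c. Ogg1 and Mpg, the glycosylases of oxidised and alkylated bases, were not called, at -0.082 (adjusted p = 0.677) and 0.30 (adjusted p = 0.0923). Of 44 tested genes of DNA replication, 6 were lower and 0 higher with all libraries, and 1, Mcm3, without library c (-0.21 ± 0.057, adjusted p = 0.0198). Over all tested genes 4.63% were called lower with all libraries, and 11.1% in either direction. Without library c these shares were 2.50% and 6.26%. Without vehicle library c, edgeR called 0 of the 44, and 7 had an unadjusted p under 0.05.

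Genes that supply sterols, iron and glutamate came next. Of 27 tested genes of cholesterol synthesis and transport, 1 (Abca1) was higher and 9 were lower, and the same numbers were called without library c, with 6 lower genes called both ways. Lower calls made up 4.63% of all tested genes with all libraries and 2.50% without library c. Hmgcs1, the synthase at the entry of the pathway, stood at 344, 389.5 and 299 CPM in the vehicle and 275, 276 and 254 CPM after 6 mM (log2 fold change -0.36 ± 0.069, adjusted p = 0.00108, and -0.32 ± 0.071, adjusted p = 0.0035, without library c). Idi1, isopentenyl diphosphate isomerase, stood at 204, 233 and 187 CPM in the vehicle and 167, 161 and 149.9 CPM after 6 mM (log2 fold change -0.38 ± 0.072, adjusted p = 0.000792, and -0.34 ± 0.074, adjusted p = 0.00313, without library c). Lss and Cyp51, later enzymes, were at -0.38 and -0.32 and -0.22 and -0.25 with and without library c. Vehicle library b was the highest library for Hmgcs1 and Idi1, and without it 2 genes of the list were lower and 1 was higher.

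Tfrc, the transferrin receptor that brings iron into the cell, stood at 247, 259.9 and 291 CPM in the vehicle and 186, 192 and 161 CPM after 6 mM (log2 fold change -0.57 ± 0.074, adjusted p = 7.87e-06, and -0.49 ± 0.074, adjusted p = 2.83e-05, without library c). Every treated library lay below every vehicle library. Gls2, the p53-responsive glutaminase, stood at 8.89, 7.61 and 8.27 CPM in the vehicle and 4.88, 5.17 and 5.67 CPM after 6 mM (log2 fold change -0.66 ± 0.14, adjusted p = 0.00316, and -0.72 ± 0.16, adjusted p = 0.004, without library c). The other falls among the 15 largest were those of Nr2f1, an orphan nuclear receptor, at log2 fold changes of -0.65 and -0.71 with and without library c, Adamts1, a matrix metalloprotease, at -0.60 and -0.50, Sema3e, a semaphorin, at -0.58 and -0.39, Slc35g1 at -0.57 and -0.48, Arid1a, a subunit of the SWI/SNF chromatin remodeller, at -0.55 and -0.33, Tarbp1 at -0.53 and -0.36 and Dna2, a nuclease and helicase of replication forks, at -0.52 and -0.34. In Sema3e, Arid1a, Tarbp1 and Dna2 library c was the lowest of the 6 libraries, and the fall was smaller without it.

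Genes of glutathione metabolism were mostly higher where called. Of 24 tested genes of glutathione metabolism, 7 were higher and 1 lower, and 4 and 1 without library c, where the median log2 fold change went from 0.26 to 0.11. Higher calls made up 6.43% and 3.75% of all tested genes. The list is short in exonic length, with a median of 1868.5 bases against 4247 over all tested genes, and library c was high for short genes. The part of this in the list's calls with all libraries was not tested. Gstm2, a glutathione transferase, stood at 53.3, 55.9 and 56.7 CPM in the vehicle and 71.4, 74.3 and 91.97 CPM after 6 mM (log2 fold change 0.52 ± 0.070, adjusted p = 1.24e-05, and 0.40 ± 0.060, adjusted p = 2.99e-05, without library c). Gstt3 and Gstt1, transferases of the theta class, were at 0.44 and 0.45 and 1.37 and 1.35, and Mgst3, a microsomal transferase, at 0.66 and 0.47. Gstt1 did not meet the rule for the largest rises (called both ways, at least 5 CPM, separate libraries). Gsr, glutathione reductase, was lower at -0.20 and -0.21, called both ways.

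Of 32 tested NRF2 targets, 6 were higher and 5 lower, and 3 and 4 without library c, with a median log2 fold change of 0.0021 and -0.0042. Over all tested genes 6.43% were higher and 4.63% lower, and 3.75% and 2.50% without library c. The called genes went in both directions. Gsta4, a transferase that acts on lipid aldehydes, was higher at 0.61 and 0.53. Txnrd1, thioredoxin reductase 1, was lower (352, 339 and 401 CPM in the vehicle and 309.6, 316 and 270.5 CPM after 6 mM, log2 fold change -0.29 ± 0.063, adjusted p = 0.00337, and -0.22 ± 0.060, adjusted p = 0.0216, without library c). Hmox1, haem oxygenase 1, was lower (58.9, 62.1 and 54.9 CPM in the vehicle and 45.4, 48.1 and 52.9 CPM after 6 mM, log2 fold change -0.27 ± 0.065, adjusted p = 0.00793, and -0.33 ± 0.067, adjusted p = 0.00157, without library c). Nqo1, a quinone reductase and defining target, was called with all libraries alone (log2 fold change 0.48 ± 0.14, adjusted p = 0.0287, and 0.50 ± 0.16, adjusted p = 0.0556, without library c), as was Gclm, the partner subunit of Gclc (log2 fold change -0.29 ± 0.069, adjusted p = 0.00745, and -0.22 ± 0.070, adjusted p = 0.0532, without library c). Gclc and Slc7a11, which supply glutathione synthesis, were not called, at 0.013 (adjusted p = 0.952) and -0.0030 (adjusted p = 0.987).

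The changes after washout were then set against those at the end of the exposure. The 6 mM cultures collected at 4 h, before the washout, had their own vehicle. There 5281 genes were called (39.8%), 2686 higher (20.3%) and 2595 lower (19.6%). Of these 5281, 5013 had a smaller change after washout. The median size over the 5281 was 0.45 (log2) at 4 h against 0.14 after washout and 0.11 without library c. Over all tested genes the median size was 0.25 at 4 h, and 0.15 and 0.12 after washout. Genes picked by their call at 4 h lean to a large change there, and the share with a smaller change over all tested genes was not counted. The difference between the effects at both times was called for 3240 genes (24.4%) with all libraries, and for 3385 of 13427 without library c. The differences of single genes and lists below are with all libraries. Of the 1466 genes called after washout, 817 were also called at 4 h, which is 55.7% of the washout calls and 15.5% of the 4 h calls: 736 in the same direction and 81 in the opposite one. Of the 617 called with and without library c, 365 were called at 4 h in the same direction, 31 in the opposite direction and 221 not at all.

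All 42 tested genes of mitosis were lower at 4 h, with a median log2 fold change of -1.07. After washout 2 were lower (Bub1 at -0.17 and Espl1 at -0.28), and without library c edgeR called 0, with 7 at an unadjusted p under 0.05, a median of -0.042, and 0 called by DESeq2 and 3 by voom with quality weights. The difference between the times was called for 41 of the 42. Of 41 tested targets of ATF4, the transcription factor of amino acid stress, 38 were higher at 4 h with a median of 0.52. After washout 6 were higher with all libraries and 0 without library c, where 1 (Bcat1, -0.17 ± 0.046, adjusted p = 0.0228) was lower. Of the p53 targets 28 were higher at 4 h and 11 after washout: Mdm2 was at 1.78 ± 0.057, adjusted p = 2.71e-20 at 4 h and at 0.26 after washout. Over all tested genes 20.3% were higher and 19.6% lower at 4 h. After washout these shares were 6.43% and 4.63% with all libraries, and 3.75% and 2.50% without library c.

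Other groups had their own course. The HIF-1 and glycolysis genes had 7 higher and 4 lower calls at 4 h and 0 and 19 after washout, and the difference was called for 20 of the 32. For Pfkl the change was 0.14 ± 0.084, adjusted p = 0.202 at 4 h, and the difference between the times was -0.81 ± 0.12, adjusted p = 5.15e-06. Pdk1 was at -0.051 ± 0.12, adjusted p = 0.775 at 4 h, with a difference of -0.81 ± 0.17, adjusted p = 0.000781. Ak4 was lower at both times (-0.89 ± 0.093, adjusted p = 5.46e-09 at 4 h). At 4 h, 13 of the 27 cholesterol genes had a higher call and 0 a lower one, and the difference was called for 12. Lysosomal genes were higher for 24 of 37 at 4 h and 19 after washout. Ces2e rose further, from 1.54 ± 0.14, adjusted p = 5.61e-10 at 4 h, with a difference of 1.18 ± 0.19, adjusted p = 2.97e-05. Celf5 was at 1.86 after washout and at 3.80 ± 0.18, adjusted p = 1.81e-16 at 4 h, with a difference of -1.94 ± 0.28, adjusted p = 4.41e-06. Sytl1 and Dcxr were at 1.63 and 1.35 at 4 h, and their differences between the times were not called, at 0.12 ± 0.23, adjusted p = 0.747 and -0.061 ± 0.16, adjusted p = 0.826.

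Genes called in opposite directions at the 2 times, with the largest washout changes, were Tcp11l2, Gls2, Dnajb4, Slc2a1, Dna2 and Ctnnal1. The genes of this paragraph were picked by their calls at the 2 times, so a called difference is no separate support for them. Gls2 was at 0.56 ± 0.14, adjusted p = 0.00152 at 4 h and lower after washout, with a difference of -1.22 ± 0.20, adjusted p = 2.9e-05. Dnajb4, a co-chaperone of HSP70, was at -0.75 ± 0.087, adjusted p = 4.05e-08 at 4 h and stood at 29.1, 26.4 and 25.2 CPM in the vehicle and 40.4, 42.9 and 39.5 CPM after 6 mM after washout (log2 fold change 0.60 ± 0.082, adjusted p = 1.45e-05, and 0.62 ± 0.087, adjusted p = 7.53e-06, without library c). Ctnnal1, alpha-catulin, was at -0.26 ± 0.071, adjusted p = 0.00403 at 4 h and at log2 fold change 0.51 ± 0.067, adjusted p = 7.61e-06, and 0.54 ± 0.072, adjusted p = 4.73e-06, without library c after washout. Slc2a1 was at 0.22 ± 0.086, adjusted p = 0.0416 at 4 h. Among the genes not called at 4 h, the largest rises after washout were those of Lbp, Ugt1a7c, Phyhd1, Selenop, Npnt and Htra3, and the largest falls those of Pdk1, Gm49759, Pfkl, Sema3e, Tfrc and Tarbp1. The difference between times was called for Lbp (1.74 ± 0.51, adjusted p = 0.0125), Selenop (0.79 ± 0.14, adjusted p = 9.42e-05), Htra3 (0.88 ± 0.27, adjusted p = 0.0167) and Tfrc (-0.63 ± 0.10, adjusted p = 3.52e-05), and not for Ugt1a7c (1.73 ± 0.66, adjusted p = 0.0611), Phyhd1 (0.59 ± 0.29, adjusted p = 0.145) or Npnt (0.67 ± 0.27, adjusted p = 0.071).

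**Figure D4:**
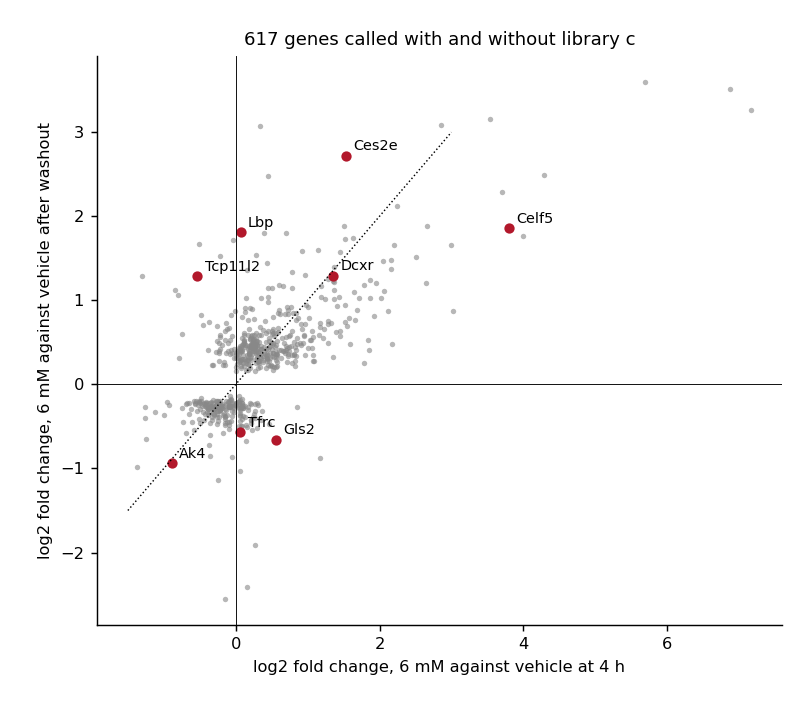
Log2 fold change of 6 mM against vehicle after washout (vertical axis) and at 4 h (horizontal axis) for the 617 genes called after washout with and without library c. The dotted line marks equal changes: Ces2e lies above it, at 2.72 after washout and 1.54 at 4 h, and Celf5 below it, at 1.86 and 3.80.

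Neighbouring doses were compared directly. After the same washout, 10 mM and 6 mM differed in 6 genes (0.0453%), 4 higher (0.0302%) and 2 lower (0.0151%) at 10 mM, and 2292 had an unadjusted p under 0.05. Gm26917, a non-coding gene, was higher at 10 mM by a log2 difference of 1.85 ± 0.15 (adjusted p = 2.10e-08), and Tfrc by 0.64 ± 0.074 (adjusted p = 8.48e-06). Both stayed called without library c of 6 mM, where they were the 2 genes called (0.0149%), at 1.96 ± 0.17 and 0.57 ± 0.074. The other 4 were Scel, Ptprb, Tmem176a and Cxxc5. Without 6 mM library a or b, 314 and 1098 genes were called, and without 10 mM library a, b or c 3, 2 and 3. Tfrc thus stood at 281 ± 3.85 CPM at 10 mM, 179.7 ± 16.6 CPM at 6 mM, 182 ± 10.9 CPM at 4 mM and 266 ± 22.7 CPM in vehicle.

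Against 4 mM, 3 genes were called (0.0226%), 2 higher (0.0151%) and 1 lower (0.00754%) at 6 mM, and 1719 had an unadjusted p under 0.05. Ces2e was higher at 6 mM by 0.93 ± 0.10 (adjusted p = 7.57e-06) and Dcxr by 0.56 ± 0.10 (adjusted p = 0.034), and Hmgcs1 was lower, at -0.43 ± 0.069 (adjusted p = 0.00593). Ces2e and Hmgcs1 were called without library c too, at 0.86 ± 0.11 and -0.39 ± 0.071, and were then the 2 genes called (0.0149%, with 0.00745% in each direction). Without 6 mM library b 23 genes were called, and without 4 mM library b 1. Hmgcs1 stood at 361 ± 16.3 CPM at 4 mM and 268 ± 12.3 CPM at 6 mM.

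The doses share their vehicle, so their values against it are given side by side. In the fit of all libraries, 130 (0.981%), 461 (3.48%) and 705 (5.32%) genes were called at 1, 4 and 10 mM, against 1466 (11.1%) at 6 mM. The 840 called at 6 mM without library c come from another fit. The other doses were not counted in that fit, so 840 cannot be set against their numbers. Of the 32 HIF-1 and glycolysis genes 0, 17, 19 and 23 were lower at 1, 4, 6 and 10 mM, with median log2 fold changes of -0.011, -0.30, -0.37 and -0.49. Of the 37 lysosomal genes 4, 6, 19 and 14 were higher, with medians of 0.10, 0.14, 0.21 and 0.21. Of the 27 cholesterol genes, higher calls numbered 6, 1, 1 and 1 at these doses and lower calls 0, 0, 9 and 12, with medians of 0.26, 0.069, -0.12 and -0.25. Pdk1 was at 0.065, -0.52, -0.86 and -1.15 at the 4 doses, and Ces2e at 0.27, 1.79, 2.72 and 2.63.

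Many calls rested on library c. Of the 1466 genes, 849 were called only when library c was kept. Their median exonic length was 2735 bases for the 444 higher ones and 6726 for the 405 lower ones, against 4247 over all tested genes. For the genes called both ways it was 4214.5 and 5244. Of 77 tested genes of the cytosolic ribosome 20 were higher with all libraries and 1 without library c (Rpl10, 0.27 ± 0.075, adjusted p = 0.0244), and the median log2 fold change went from 0.27 to 0.044. Of 76 tested nuclear genes of oxidative phosphorylation 15 were higher with all libraries and 1 without it (Cox4i1, 0.22 ± 0.063, adjusted p = 0.03), and the median went from 0.25 to 0.027. Higher calls made up 6.43% of all tested genes with all libraries and 3.75% without library c. Cox4i1 overlaps the read-through gene Gm20388, so its count is uncertain. The part of library c's length trend in these lists was not tested. The median exonic lengths of these lists were 1781 and 1696.5 bases.

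Some single genes were called only with library c or only without it. Pcdhgc4, a protocadherin of a cluster whose genes share exons, stood at 44.8 CPM in library c and at most 0.837 CPM in the other 5 (log2 fold change 4.73 ± 1.49, adjusted p = 0.0427, and -0.45 ± 1.67, adjusted p = 0.931, without library c). Gm7666 (log2 fold change 3.71 ± 1.14, adjusted p = 0.039, and 2.95 ± 1.24, adjusted p = 0.176, without library c) and Ptprv (log2 fold change 2.27 ± 0.66, adjusted p = 0.0244, and 2.20 ± 0.71, adjusted p = 0.056, without library c) lost their calls without library c, and the fold change of Ptprv hardly moved. Thrb, a thyroid hormone receptor, was called only without it: it stood at 1.18, 1.17 and 1.15 CPM in the vehicle and 2.69, 2.73 and 0.810 CPM after 6 mM (log2 fold change 0.84 ± 0.31, adjusted p = 0.0778, and 1.21 ± 0.26, adjusted p = 0.00333, without library c). The same held for Mpp7, at 0.76 and 0.97 with and without library c, and for Gm5559, at -0.92 and -2.08.

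**Figure D5:**
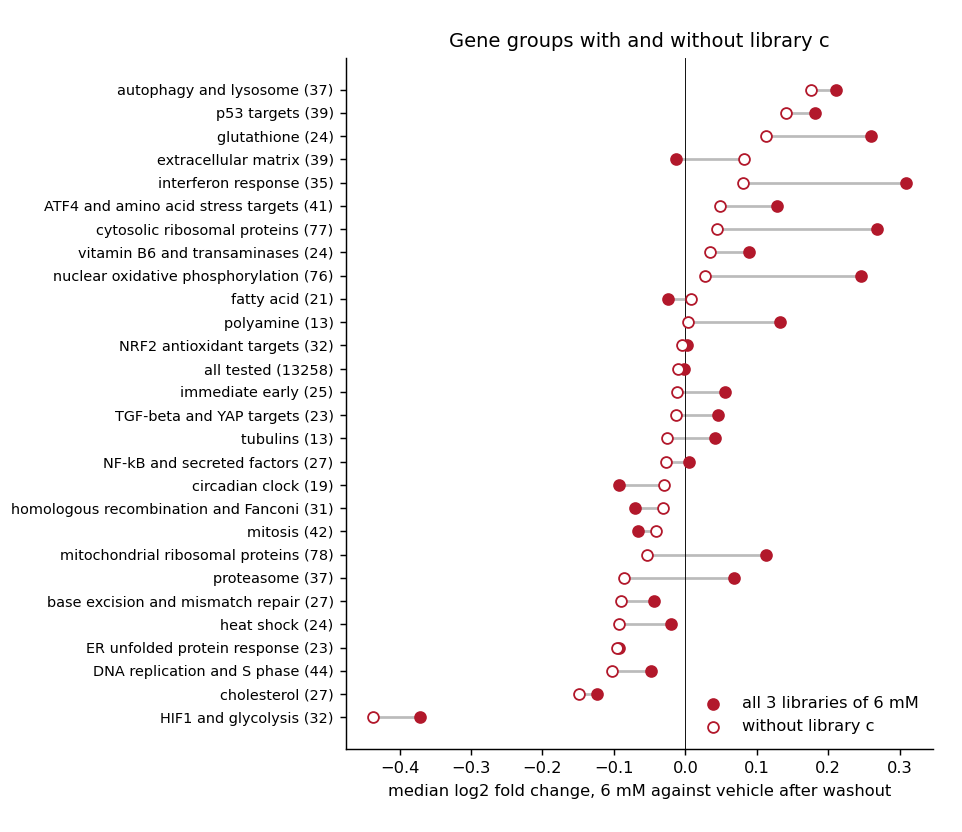
Median log2 fold change of 6 mM against vehicle after washout (horizontal axis) of the gene lists with at least 13 tested genes and of all tested genes (vertical axis, number of genes in brackets), with all 3 libraries of 6 mM (filled) and without library c (open). The cell type marker lists are left out. The cytosolic ribosome moves from 0.27 to 0.044, and the HIF-1 and glycolysis list from -0.37 to -0.44.

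The remaining lists are read against 11.1% of all tested genes called with all libraries and 6.26% without library c. Of 24 tested heat shock genes 3 were higher and 2 lower, and 2 and 3 without library c, and of these Cryab, Dnajb4, Hsph1 and Stip1 were called both ways, at 0.50 and 0.38, 0.60 and 0.62, -0.22 and -0.21 and -0.14 and -0.18 with and without library c. Of 23 genes of the endoplasmic reticulum stress response 0 were higher and 2 lower, and 4 lower without library c, among them Hspa5, the chaperone BiP, at -0.23 ± 0.054, adjusted p = 0.00638, and Hyou1, lower both ways at -0.32 and -0.27. Of 39 matrix genes 6 were higher and 3 lower, and 2 and 2 without library c, with Lama4, a laminin chain, at 0.40 and 0.59 and Plod1, a collagen lysyl hydroxylase, at -0.23 and -0.27. Of 27 genes of NF-kB and secreted factors 3 were higher and 3 lower, and 2 and 2 without library c, with Tnfaip2 at 1.04 and 0.92, Mmp3, stromelysin, at 0.83 and 0.72 and Cxcl12, a chemokine, at -0.32 and -0.29. Tnfaip2 was low, with a mean of 1.36 CPM in the vehicle and 2.79 CPM after 6 mM. Myl9, a myosin light chain, was at 0.76 and 0.61. With all libraries, edgeR called 0 members of several lists, and some members had an unadjusted p under 0.05 or were called by another tool. Of 35 interferon response genes 5 had such a p, and DESeq2 called 1 and voom with quality weights 0. Of 24 genes of vitamin B6 and transaminases 4 did, with 2 and 5 called by these tools, and of 13 polyamine genes 6 did, with 1 and 3 called. Of 37 proteasome genes 5 did, with 2 and 7 called. The numbers were 1, 0 and 1 for 11 mitochondrially encoded genes and for 13 tubulins, and 4, 0 and 0 for 17 mesenchymal markers. Without library c, edgeR called 1 vitamin B6 gene and 2 proteasome genes, all lower, with 5 and 9 at such a p. For interferon and polyamine genes edgeR called 0, with 0 and 4 at such a p, while DESeq2 called 0 and 2 and voom 0 and 4. Of the mitochondrially encoded genes, tubulins and mesenchymal markers edgeR called 0, with 1, 2 and 1 at such a p.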

How the data were processed

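The members and gene lists were chosen with earlier results of these data known, so no list is independent support for its own direction. Per the labels' protocols, RNA isolated with Qiazol was freed of DNA with DNase I, and stranded poly-A libraries were read in pairs on a NextSeq instrument. The authors deposited expected counts per gene. The aligner, quantifier and genome build are not given in the sources used here. Names, lengths and positions came from GENCODE M21 by identifier (48174 of 49585 entries, 97.2%), and the authors' build may differ. No per-sample column was left unused.

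The deposited expected counts were rounded to whole numbers (73.9% of values above 0 were whole already). Library totals ran from 10560942 to 17086721 counts over the 32 libraries. Genes were kept with edgeR's filter (minimum count 10, minimum total 15), scaled with TMM and fitted with 1 coefficient per group over the 32 libraries. Estimation was robust, with 22 residual degrees of freedom. The common biological coefficient of variation was 0.0847. P-values are from the quasi-likelihood F-test in edgeR, adjusted by the method of Benjamini and Hochberg across the tested genes. Errors of log2 fold changes are standard errors derived from the F statistic, and log2 levels used a prior count of 2.

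Genes were named by rule. It took genes called with and without library c, with at least 5 CPM in a group and separate libraries, the 15 with the largest change in each direction. It added the largest with the same, the opposite or no call at 4 h, those of them called against 4 or 10 mM, the 3 largest called only with or only without library c, and up to 4 members per list by adjusted p with its defining members. Other named list members, and Scel, Ptprb, Tmem176a and Cxxc5, were chosen after their values were seen. Some genes that the rule takes are not reported here. The fit was tested on simulated data. Alternatives were DESeq2, its size factors, no filter, no robust estimation, fewer libraries in the fit, a replicate block, length offsets, voom with quality weights and left-out libraries, and 3 that combine omissions were chosen after seeing the data. R 4.3.3, edgeR 4.0.16, limma 3.58.1 and DESeq2 1.42.0 were used. Promoter windows are from RefSeq, GRCm38.p6.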

Additional observations from a re-analysis of the deposited data

Results flagged for a closer look

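For 37 of the genes taken by the naming rule and reported here, the effect of 6 mM after washout differed from that at 4 h by a test of the difference itself (edgeR's quasi-likelihood test, adjusted p of at most 0.0469 in each). Over all tested genes 24.4% met the threshold, and values are the washout effect minus the 4 h effect in log2 units. The naming rule took some of these genes by their calls at both times, which favours a called difference. The share over all tested genes is thus no like measure for the 37. All differences here include library c of 6 mM and are not given without it. For some genes the washout part was smaller without library c: Sema3e went from -0.58 to -0.39 and Tarbp1 from -0.53 to -0.36.

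Among genes higher than vehicle after washout, the difference was positive for Tcp11l2 (1.82), Lbp (1.74), Dnajb4 (1.35), Ces2e (1.18), Htra3 (0.88), Tgfb1 (0.80), Selenop (0.79), Ctnnal1 (0.77), Myl9 (0.59), Gstm2 (0.40), Ephx1 (0.39). It was negative for Celf5 (-1.94), Fas (-0.87), Klf4 (-0.80), Ypel2 (-0.74), which were further above vehicle at 4 h.

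Among genes lower than vehicle after washout, the difference was negative for Gls2 (-1.22), Dna2 (-0.82), Pfkl (-0.81), Pdk1 (-0.81), Skil (-0.77), Slc2a1 (-0.76), Cry1 (-0.68), Tfrc (-0.63), Hmgcs1 (-0.61), P4ha1 (-0.50), Plod1 (-0.49), Idi1 (-0.49), Tarbp1 (-0.44), Sema3e (-0.41), Parp1 (-0.31), Hyou1 (-0.30), Mcm3 (-0.25). It was positive for Espl1 (1.56), Apex2 (0.86), Txnrd1 (0.46), Bub1 (0.45), Dnajc3 (0.27), which were further below vehicle at 4 h. Of the 37 genes, 5 were no longer called after washout without library c: Bub1 (-0.14, adjusted p = 0.109), Espl1 (-0.17, adjusted p = 0.187), Dnajc3 (-0.092, adjusted p = 0.271), Klf4 (0.28, adjusted p = 0.102), Tgfb1 (0.45, adjusted p = 0.0929). The washout and the later collection cannot be told apart in this design.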

How the results depend on the processing

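After washout, 1466 genes were called. The count was 1633 with DESeq2, 1502 with its size factors, 1690 with length offsets and 2047 with quality weights. It was 932 with no filter on low counts (667 higher), 492 with only the washout libraries fitted (369 higher) and 1 with only the groups compared. With one library left out it ran from 732 to 2660: 873, 894 and 732 without vehicle library a, b or c, and 2408, 2660 and 840 without 6 mM library a, b or c. The quality weight of 6 mM library c was 0.0627, the lowest of the 32.

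Of the 617 genes called with and without library c, 592 were called in the same direction with DESeq2, 600 with the replicate block, 616 with quality weights, 409 with only the washout libraries and 1 with only the groups compared. Pcdhgc4 changed sign, to -0.12 with quality weights, -0.45 without 6 mM library c and 1 mM library b, and -0.43 with length offsets without library c, and it ran from -0.45 to 5.32 with one library left out.

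The 4 h count stayed within 1.5 times of 5281 under the alternatives run, and the count for the difference between times was 1819 with only the groups compared, against 3240. For 10 against 6 mM (6 called) the count was 66 with DESeq2, 11 with no filter, 3 with only the washout libraries, 17 with length offsets, 93 with quality weights and 2 to 1098 with one library left out. For 6 against 4 mM (3 called) it was 15 with DESeq2, 9 with no filter, 1 with only the washout libraries, 45 with quality weights, 1 without 6 mM library c and 1 mM library b, 1 with length offsets without library c, and 1 to 23 with one library left out. With only the groups compared, edgeR called 0 and 0 genes in these comparisons, and 463 and 320 had an unadjusted p under 0.05. The cause of these moves was not tested.

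With the replicate letter as a block (replicate block), 1327 genes were called after washout. Deviations of same-letter libraries correlated at 0.056, 0.075 and 0.057 for a, b and c, each highest with its own letter, and the labels do not say that a letter marks a shared culture or day.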

Other observations

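Of 19 tested genes of the circadian clock, 13 were higher and 1 lower at 4 h, with a median log2 fold change of 0.53, where 20.3% of all tested genes were higher and 19.6% lower. After washout 1 was higher and 1 lower with all libraries, and 0 and 1 without library c, shares close to the 11.1% and 6.26% of all tested genes that were called. Dbp, a transcription factor of clock output, stood at 0.808, 0.586 and 0.901 CPM in the vehicle and 1.81, 1.11 and 2.94 CPM after 6 mM (log2 fold change 1.34 ± 0.35, adjusted p = 0.0126, and 0.93 ± 0.36, adjusted p = 0.124, without library c). Cry1, a repressor of the clock, stood at 15.7 ± 2.43 CPM in the vehicle and 11.9 ± 0.781 CPM after 6 mM (mean ± SD, n = 3), with a log2 fold change -0.40 ± 0.11, adjusted p = 0.0139, and -0.43 ± 0.12, adjusted p = 0.0232, without library c.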
